A study of Mus musculus with 10 samples.

Results

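The distal colon and the jejunum of aged mice were compared on 4 of the 10 expression arrays of the study, 2 from each segment. The jejunum pools were a yogurt pool and a control pool, and so were the distal colon pools. All mice were male ICR mice, an outbred strain, killed at 28 months of age. The control mice had eaten the AIN-93 diet, and the yogurt mice had eaten that diet with 1 to 2% LB81 yogurt, a fermented milk product, since 8 months of age. Equal amounts of RNA from every mouse were pooled before labelling, so each array holds 10 yogurt-fed or 9 control mice and the spread between mice was not measured. A gene's difference between segments is the mean of the 2 within-diet differences, distal colon minus jejunum. The other 6 arrays held the ileum, liver and spleen of the same pools of mice and entered the fit as further tissues. Ileum levels are given beside some genes for position along the gut and were not tested here.

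The jejunum is the main site where sugars, amino acids and fat are taken up. Its enterocytes carry digestive enzymes on a brush border and pack dietary fat into chylomicrons, and its crypts hold Paneth cells that release antimicrobial peptides. The distal colon has neither villi nor typical Paneth cells. It recovers sodium and water, secretes bicarbonate and potassium, is covered by mucus from abundant goblet cells, and faces a dense bacterial community. Which part of the gut an epithelial cell belongs to is set by transcription factors, with posterior Hox genes marking the hindgut and Gata4, Pdx1 and Onecut2 marking the upper intestine.

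Each of 13599 genes was represented by 1 probe set, a group of short probes for 1 transcript, with values on the log2 scale. Where a pair of values is given for a segment, the yogurt pool comes first and the control pool second. Values under an array's median were raised to that median, called the floor, which was 5.47 to 5.49 on these 4 arrays. Where 1 segment lay at the floor on at least 1 of its 2 arrays, the fold can only be bounded from that side and is written as "at least". A gene was called when limma gave a Benjamini-Hochberg adjusted p under 0.05 and the difference was at least 2-fold. The spread behind these p-values is that of the diet ratio from tissue to tissue, and the spread between mice does not enter them. A gene at the floor shows almost no spread, so its SE can be too small. In whole tissue, fewer cells of a type and less RNA per cell cannot be told apart.

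The 2 arrays of a segment were close to each other, with a Spearman correlation over probe sets of 0.994 in distal colon and 0.994 in jejunum, against 0.954 to 0.958 between segments. RNA quality, read as the log2 excess of 3′ signal over 5′ signal, was alike on the 4 arrays, between 0.13 and 0.23 with the Gapdh probes and between 0.93 and 1.01 with the actin probes.

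Of the genes tested, 1656, or 12.2%, were called. In distal colon 1041 genes, or 7.65%, were higher, and in jejunum 615, or 4.52%, were higher. These counts, and the medians and shares that rest on them, include genes of the pancreas and stomach, which both jejunum pools carried. Without the pancreas, islet, stomach and duodenal gland lists 1040 genes were called higher in distal colon and 589 higher in jejunum. Differences toward the jejunum were the larger ones, with a median log2 difference of -1.68 among its calls against 1.40 among the calls of the distal colon. At least 8-fold differences numbered 145 for jejunum and 68 for distal colon, and at least 32-fold differences numbered 50 and 18. In 173 genes called higher in jejunum and 207 called higher in distal colon the other segment was at the floor on at least 1 of its 2 arrays. The median difference over all genes tested was 0.07. All 1656 called genes had the same sign in the yogurt pair and in the control pair, and in none did the values of the segments overlap. The rule for a call makes both nearly certain, so they add no support. The shares over all genes tested were not counted.

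**Figure D1:**
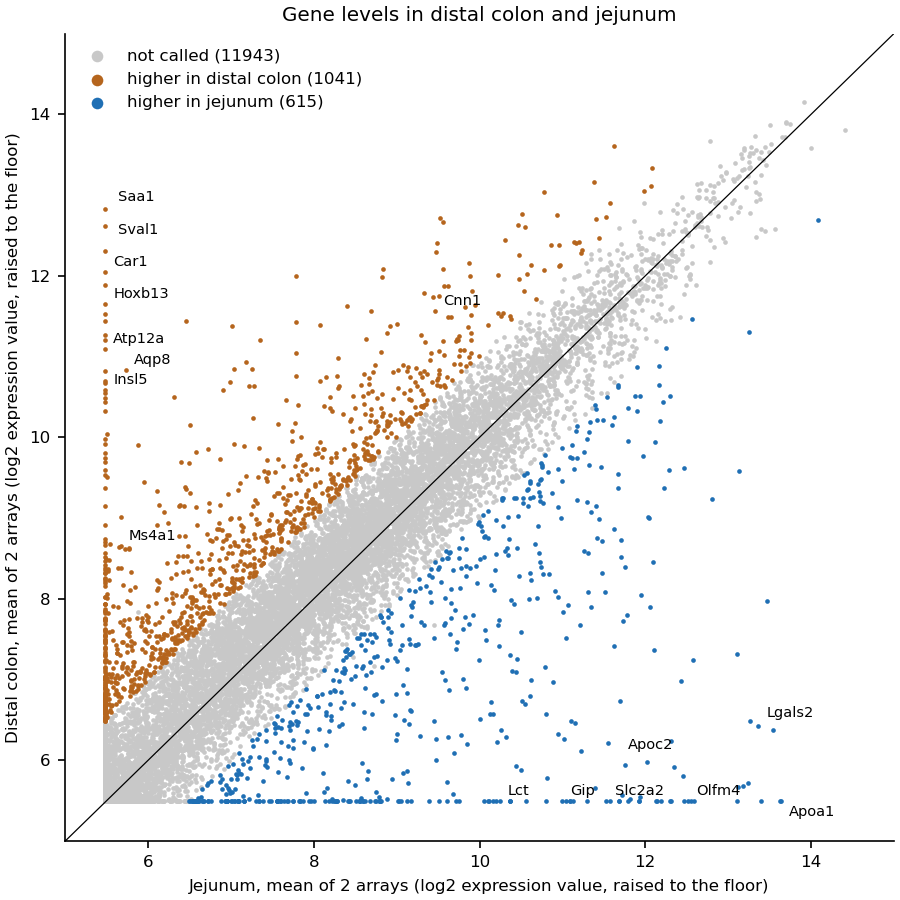
Each point is 1 gene of the 13599 tested, placed at the mean of the 2 jejunum arrays (horizontal) and of the 2 distal colon arrays (vertical), both as log2 values raised to the floor, with the line of equal levels. The 1041 brown points lie above the line and the 615 blue points below it, and the rows of points along the axes are genes at the floor in the other segment.

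Genes of lipid uptake and chylomicron assembly were higher in jejunum in most of the group: 25 of 30 tested members were called there and none in distal colon, with a median log2 difference of -2.65. Apoa1, an apolipoprotein of HDL and chylomicrons, read 13.57 (yogurt) and 13.71 (control) in jejunum, against 5.06 and 5.39 in distal colon. It was at least 284-fold higher in jejunum (log2 difference -8.15, SE 0.051, adjusted p = 1.88e-10). Fabp1, which binds fatty acids inside the enterocyte, read 13.30 and 13.50 in jejunum and 3.96 and 4.0 in distal colon, at least 241-fold apart. Apoa4 was at least 196-fold higher and Apoc3, an inhibitor of lipoprotein lipase, at least 126-fold. For all 4 genes the jejunum arrays were near the top of the scale and the distal colon arrays were at the floor. Apoc2, the activator of that lipase, was 86.5-fold higher in jejunum. Mttp, which loads lipid onto apolipoprotein B, had a log2 difference of -6.19, Mogat2, which rebuilds triglyceride, -5.64, and Npc1l1, the cholesterol importer, -4.67. Cd36 (-0.86), Apobec1 (-0.20), Apoa5 (-0.03), Plin2 (0.49) and Abca1 (0.93) were not called. Ileum levels were not alike across the group: Apoa1 read 13.85 and 13.93 there in the yogurt and control pools, and Fabp1 8.69 in both. The probe sets of Apoa1 and Apoa4 are of a kind that can bind related transcripts.

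Brush border hydrolases, the enzymes that finish digestion at the cell surface, were higher in jejunum in 15 of 19 tested members and in distal colon in 1, with a median of -2.85. Alpi, intestinal alkaline phosphatase, read 13.18 (yogurt) and 13.36 (control) in jejunum. In distal colon it read 7.48 and, below the floor, 5.09, so the distal colon arrays were apart from each other but both far below jejunum (log2 difference -6.79, SE 0.470, adjusted p = 1.31e-05, at least 110-fold). Lct, the lactase that splits milk sugar, read 9.98 and 10.50 in jejunum and 4.14 and 3.84 in distal colon, at least 27.0-fold apart. Its ileum values, 4.42 and 5.22, were also under the floor. Treh, which splits trehalose, was at least 23.7-fold higher in jejunum and Mme, the membrane peptidase neprilysin, 27.0-fold. The exception was Mep1a, a subunit of the metalloprotease meprin, which was 6.64-fold higher in distal colon (9.80 and 9.98 against 6.87 and 7.44). The other subunit gene, Mep1b, had a difference of -1.83 and was called higher in jejunum.

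Sugar uptake and fructose metabolism followed with 8 of 15 members higher in jejunum, 1 higher in distal colon and a median of -1.85. Slc2a2, the GLUT2 transporter of the basal membrane, read 11.34 and 11.72 in jejunum and 3.77 and 3.87 in distal colon, at least 65.8-fold apart. The fructose transporter Slc2a5 was 16.2-fold higher in jejunum, Khk, which starts fructose breakdown, 9.06-fold, and Fbp1, an enzyme of gluconeogenesis, 40.5-fold. Slc5a1, the sodium-glucose cotransporter, had a difference of -2.69. Pck1, the first step of gluconeogenesis, was 3.39-fold higher in distal colon with its brightest probe set, and was not called with the mean of its probe sets (0.64).

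Amino acid and peptide transporters divided between the segments: 9 of 20 were higher in jejunum and 2 in distal colon, with a median of -0.93. Slc6a19, the main importer of neutral amino acids, read 10.13 and 10.61 in jejunum and 4.75 and 4.72 in distal colon, at least 29.5-fold apart. Both subunits of the cystine and basic amino acid transporter were higher in jejunum, Slc7a9 by 11.6-fold and Slc3a1 by at least 11.1-fold. Slc3a1 read 7.13 (yogurt) and 5.20 (control) in distal colon, a spread of the same kind as that of Alpi. In the other direction Slc6a14, a broad amino acid transporter driven by sodium and chloride, read 9.96 and 10.00 in distal colon and 4.63 and 4.21 in jejunum, at least 22.7-fold apart. The peptide transporter Slc15a1 was not called, at 8.10 and 7.89 in distal colon and 8.38 and 8.14 in jejunum (log2 difference -0.27). In vitamin and mineral uptake 12 of 27 members were higher in jejunum and 1 in distal colon, with a median of -0.85. Rbp2, which carries retinol in the enterocyte, was 34.5-fold higher in jejunum, and S100g, the calcium-binding protein calbindin of the duodenum, 15.8-fold. The distal colon member was Slc34a2, a phosphate transporter, at least 6.41-fold higher there, although its ileum values, 11.14 and 11.22, were above those of distal colon, 8.23 and 8.09.

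Promoter sequence was read to describe what the called genes carry in front of their start. Matches were sought on both strands of the 250 bases before each RefSeq transcript start for 3 motifs: GTTAATNAT for the HNF1 factors, CAAAGTCCA for the HNF4 factors and AGATAA for the GATA factors. These motifs do not contain one another. The HNF4 motif was found in 2.07% of the promoters of genes called higher in jejunum, 0.77% of those called higher in distal colon and 0.466% of those of all genes tested. For the HNF1 motif the shares were 1.91%, 0.674% and 0.502%, and for the GATA motif 11.6%, 6.45% and 6.47%. Over all promoters in the table, whether or not the gene was tested, the shares were 0.384% for HNF4, 0.737% for HNF1 and 9.99% for GATA. These shares are a description and were not tested, the genes called higher in jejunum include those of the pancreas and stomach, and most genes called higher in jejunum had none of the HNF4 or HNF1 letters in this window.

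The promoters shown, taken from RefSeq (mouse build GRCm38.p6), are those of Alpi, Cyp3a11 and Slc3a1 with the HNF4 motif, of Lct with the GATA motif on each strand, and, for comparison, of Insl5, a colonic hormone gene, with 3 GATA matches. They were chosen from the named genes because they held a match, and not by the size of their difference. Each runs 5′ to 3′ on the gene's strand and ends at the base before the start, and the capitals mark the motif matches.
Alpi: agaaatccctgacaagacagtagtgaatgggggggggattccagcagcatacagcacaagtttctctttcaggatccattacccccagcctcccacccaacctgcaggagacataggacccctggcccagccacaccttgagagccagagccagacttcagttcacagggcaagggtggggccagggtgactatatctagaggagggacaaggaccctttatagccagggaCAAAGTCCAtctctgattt
Cyp3a11: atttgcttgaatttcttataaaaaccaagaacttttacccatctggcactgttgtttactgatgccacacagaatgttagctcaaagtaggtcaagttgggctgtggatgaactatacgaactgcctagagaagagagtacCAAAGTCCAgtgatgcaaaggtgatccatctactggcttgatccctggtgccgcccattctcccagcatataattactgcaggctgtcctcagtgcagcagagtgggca
Slc3a1: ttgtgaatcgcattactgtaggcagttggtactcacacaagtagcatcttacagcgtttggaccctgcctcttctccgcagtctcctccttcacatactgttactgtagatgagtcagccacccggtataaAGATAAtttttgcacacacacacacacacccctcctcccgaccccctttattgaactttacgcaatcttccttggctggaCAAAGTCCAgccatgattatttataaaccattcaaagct
Lct: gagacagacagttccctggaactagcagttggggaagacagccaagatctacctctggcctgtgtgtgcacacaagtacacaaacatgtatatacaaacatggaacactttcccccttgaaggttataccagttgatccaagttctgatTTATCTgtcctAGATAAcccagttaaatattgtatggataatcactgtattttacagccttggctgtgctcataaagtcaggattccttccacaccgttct
Insl5: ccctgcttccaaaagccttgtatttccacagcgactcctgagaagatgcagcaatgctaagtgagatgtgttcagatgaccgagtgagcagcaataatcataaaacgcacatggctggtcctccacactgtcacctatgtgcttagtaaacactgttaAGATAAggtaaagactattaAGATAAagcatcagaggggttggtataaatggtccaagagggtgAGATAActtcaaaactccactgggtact
These windows lie at chr1:87101607-87101856 for Alpi, chr5:145879855-145880104 for Cyp3a11, chr1:128328319-128328568 for Lct and chr4:103026729-103026978 for Insl5, all on the minus strand, and at chr17:85028097-85028346 on the plus strand for Slc3a1. The HNF4 match began 19 bases before the start in Alpi, 39 in Slc3a1 and 109 in Cyp3a11. In Lct the GATA matches began 101 and 90 bases before the start, the first of them read on the other strand. Insl5, which was at the floor in jejunum, held GATA matches beginning 92, 72 and 28 bases before the transcript start used. That start lies inside the annotated span of the gene, chr4:103017872-103027271, so the Insl5 window is within the gene and not before its outer end.

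Xenobiotic metabolism held 29 of 64 members higher in jejunum and 6 higher in distal colon, with a median of -0.83. Cyp3a11, the main drug-oxidising P450 of mouse liver and small intestine, read 12.02 and 12.59 in jejunum and 3.67 and 3.65 in distal colon, at least 113-fold apart. The alcohol dehydrogenases Adh6a and Adh4 were at least 86.8-fold and 48.5-fold higher in jejunum. The distal colon had its own members of these families. Sult1a1, a phenol sulfotransferase, read 12.06 and 11.92 there against 7.83 and 7.75 in jejunum, 18.4-fold apart. Cyp2d34 was at least 16.6-fold and Cyp2c55 at least 33.6-fold higher in distal colon, and Cyp2c55 was brighter in the yogurt pool (11.46) than in the control pool (9.63). Among genes of fatty acid oxidation and ketogenesis 7 of 31 were higher in jejunum and none in distal colon, with a median of -0.51. Ppara, the nuclear receptor that drives this pathway, read 9.04 and 9.21 in jejunum and 7.24 and 7.01 in distal colon, and the peroxisomal enzyme gene Ehhadh was 4.82-fold higher in jejunum. No gene of oxidative phosphorylation (31 tested, median -0.09) or of cholesterol synthesis (20 tested, median 0.12) was called in either direction.

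**Figure D2:**
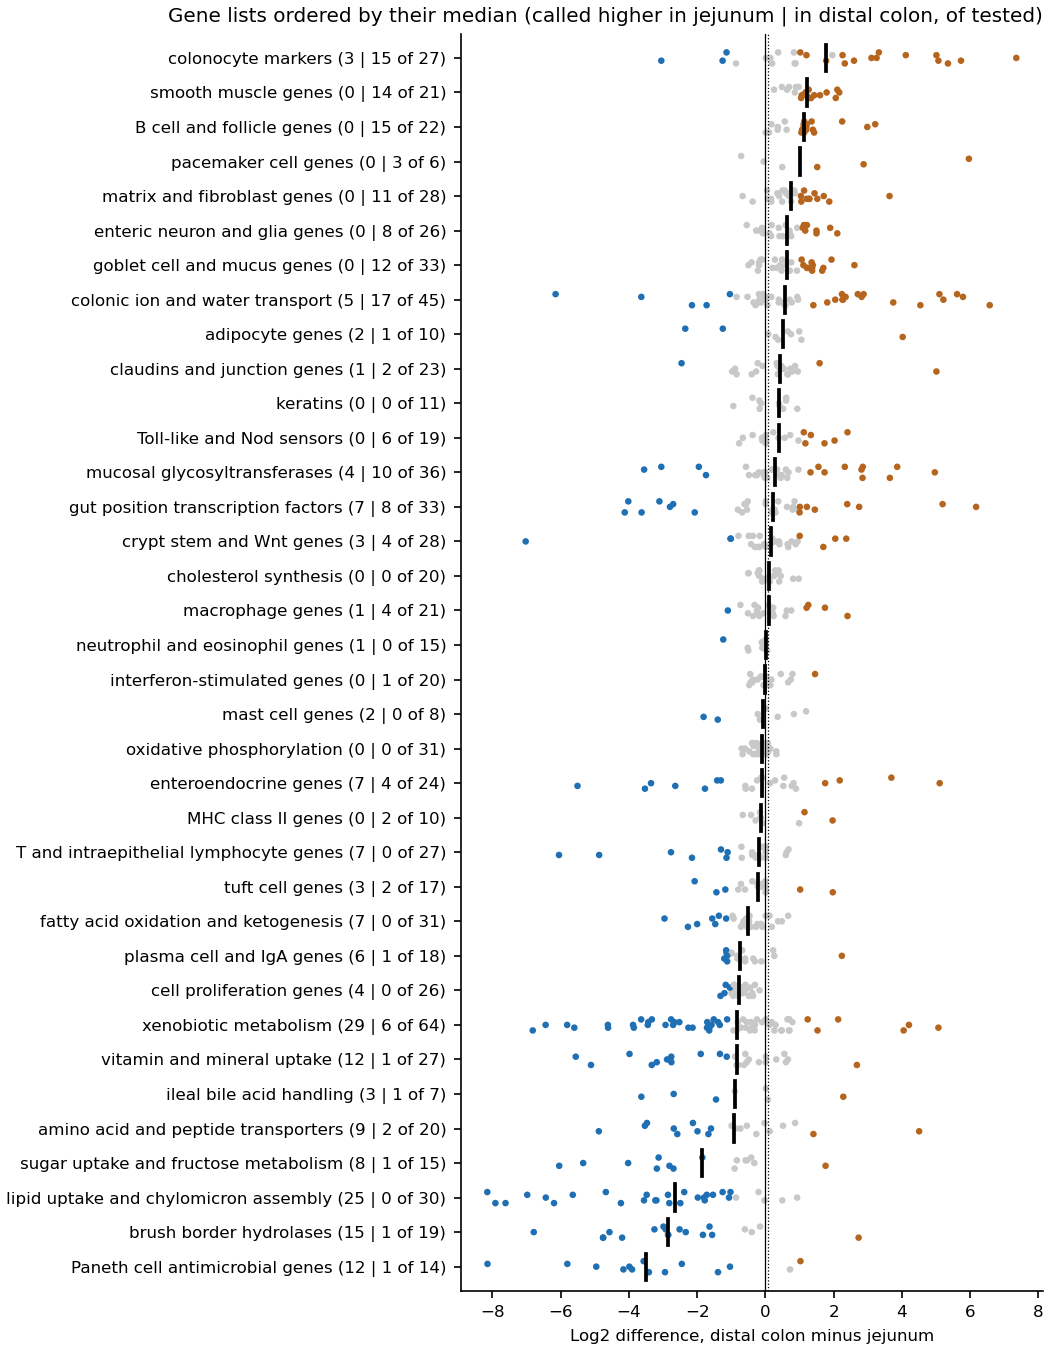
Each row is a gene list with its members as points at their log2 difference, distal colon minus jejunum, brown if called higher in distal colon, blue if called higher in jejunum and grey if not called. The black bar is the list's median, the solid line is no difference and the dotted line is the median of all genes tested, 0.07. Paneth cell antimicrobial genes (-3.49) and lists of digestion and absorption lie at the bottom, and colonocyte, smooth muscle and B cell genes at the top, up to 1.78.

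The distal colon was higher in many colonocyte markers and in many genes of ion and water transport. Of 27 colonocyte markers tested 15 were higher in distal colon and 3 in jejunum, with a median of 1.78. Saa1, an acute-phase apolipoprotein made by colon epithelium and liver, read 12.85 (yogurt) and 12.81 (control) in distal colon and 3.87 and 3.55 in jejunum, at least 163-fold apart (log2 difference 7.35, SE 0.134, adjusted p = 1.36e-08). Its ileum values were 11.39 and 10.82. Gsdmc2, a gasdermin, was at least 53.1-fold higher in distal colon, and Tgm3, a transglutaminase, at least 40.7-fold, with 2.49 on the log2 scale by its other probe set. The tight junction gene Cldn8 was at least 32.2-fold higher, while Cldn15, which forms sodium pores in the small intestine, was 5.49-fold higher in jejunum. Sval1 (at least 141-fold), the peroxisomal oxidase gene Hao2 (at least 114-fold), 2610528A11Rik (at least 85.0-fold) and the lactoperoxidase gene Lpo (at least 66.3-fold) were also among the 15 largest differences. Lpo and Tgm3 were at the floor on both ileum arrays as well as in jejunum. The colonocyte markers called higher in jejunum were B4galnt2, Ido1 and Dpep1, and the call of each depended on 1 array: B4galnt2 had an adjusted p of 0.0506 without the jejunum control array, Ido1 of 0.0719 without the distal colon control array and 0.0562 without the jejunum yogurt array, and Dpep1 a difference of -0.48 without the distal colon control array and an adjusted p of 0.11 without the jejunum control array. They also fell outside the call with fewer tissues in the fit, B4galnt2 with the 4 arrays, Ido1 with the 6 gut arrays and Dpep1 with either.

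Of 45 genes of ion and water transport 17 were higher in distal colon and 5 in jejunum, with a median of 0.57. Car1, a carbonic anhydrase, read 12.71 (yogurt) and 11.39 (control) in distal colon and was under the floor in jejunum, at 4.84 and 4.42 (at least 95.1-fold). Atp12a, the potassium-absorbing proton pump of the colon, read 11.05 and 11.14 against 3.74 and 3.75, at least 49.0-fold apart, and was at the floor in ileum. Fxyd4, a regulator of the sodium pump, was at least 55.3-fold higher. Slc5a8, which takes up short-chain fatty acids with sodium, read 10.71 and 10.67 in distal colon against 3.87 and 3.67 in jejunum (at least 37.2-fold), with ileum values of 10.20 and 10.16. The water channel Aqp8 had a log2 difference of 5.10 and Best2, a bicarbonate channel, of 4.54. Of 6 genes of the aldosterone response in this list 3 were called higher in distal colon: Hsd11b2, which protects the receptor from glucocorticoids, by 3.75 on the log2 scale, the sodium channel subunit Scnn1g by 2.35 and the receptor Nr3c2 by 1.40. The other subunits Scnn1b (0.96) and Scnn1a (0.77) and the response kinase Sgk1 (-0.01) were not called. The anion exchangers divided: Slc26a6 read 11.69 and 11.74 in jejunum and 5.51 and 5.64 in distal colon, 70.9-fold higher in jejunum, and Slc26a2 had a difference of 2.82 toward distal colon. Slc26a3, the chloride exchanger mutated in congenital chloride diarrhoea, was at 12.25 and 12.30 in distal colon and 11.51 and 11.62 in jejunum and was not called (0.71). Of the peptides that drive fluid secretion Guca2a had a difference of 2.26 and was called higher in distal colon, and Guca2b was 12.4-fold higher in jejunum. Their receptor gene Gucy2c was not called (-0.19).

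Goblet cell and mucus genes were called higher in distal colon in 12 of 33 members and in jejunum in none, with a median of 0.64. Atoh1, the factor that commits cells to the secretory lineage, read 9.82 and 9.64 in distal colon and 7.81 and 7.77 in jejunum, 3.83-fold apart. Bcas1 was 6.09-fold higher by its brightest probe set, with 0.38 on the log2 scale by the lowest of 3, and Galnt5, which starts O-linked sugar chains, 3.17-fold. Muc2, the main gel-forming mucin, was not called: it read 13.12 and 12.69 in distal colon and 12.03 and 11.93 in jejunum (log2 difference 0.93), and it passed at 1.12 without the distal colon control array. The secreted goblet products Zg16 (0.21), Tff3 (0.33), Clca1 (0.61) and Fcgbp (-0.41) were not called either. Of 36 mucosal glycosyltransferase and sulfation genes 10 were higher in distal colon and 4 in jejunum. St6galnac6, a sialyltransferase, was 14.5-fold higher in distal colon (11.18 and 11.23 against 7.32 and 7.37), B3galt5 12.5-fold and B3gnt5 at least 31.2-fold. The probe sets of B3galt5 ran from 1.47 to 3.65 and those of B3gnt5 from 0.32 to 4.96 on the log2 scale. B4galnt1 was 11.7-fold higher in jejunum.

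Paneth cell antimicrobial genes had the lowest median of the gut lists, -3.49, with 12 of 14 members higher in jejunum and 1, Reg4, higher in distal colon. Defa39, an alpha-defensin counted outside that list, read 13.35 (yogurt) and 13.12 (control) in jejunum and 5.64 and 5.80 in distal colon, 183-fold apart, though its probe set can bind other defensins. Reg1 was at least 282-fold higher in jejunum (13.65 and 13.61 against 3.94 and 4.06). Reg1 is also made by the exocrine pancreas, and the part of pancreatic RNA in its level was not tested. Itln1, an intelectin that binds microbial sugars, read 13.13 and 13.09 in jejunum. In distal colon it read 8.76 (yogurt) and 5.86 (control), so its difference was -4.38 in the yogurt pair and -7.23 in the control pair. Reg3g behaved alike on the distal colon arrays, at 7.98 and 5.02 against 12.26 and 11.12 in jejunum. The call of Reg4 (2.04-fold) was lost at 0.93 without the distal colon yogurt array and at 0.92 without the jejunum yogurt array.

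Hormone genes of the enteroendocrine cells, which are scattered through the epithelium, ran both ways: 7 of 24 were higher in jejunum and 4 in distal colon, with a median of -0.11 that changed sign under another setting. Insl5, a hormone of colonic L cells, read 10.50 and 10.67 in distal colon and 3.95 and 4.22 in jejunum, at least 34.5-fold apart, with 7.11 and 7.07 in ileum. Pyy, the satiety peptide of L cells, was 12.9-fold higher in distal colon and Gcg, which encodes GLP-1, 4.52-fold. Gcg was brighter still in ileum, at 11.31 and 11.11 against 9.71 and 9.44 in distal colon. Gip, the incretin of upper intestinal K cells, read 10.76 and 11.23 in jejunum and 4.52 and 4.61 in distal colon, at least 45.4-fold apart. Cck, which empties the gallbladder, was at least 11.5-fold higher in jejunum, and Sct, secretin, 10.2-fold. Ghrl, ghrelin, a hormone made mainly by the stomach, was at least 6.24-fold higher in jejunum (7.86 and 8.40), and the part of the stomach transcripts of these pools in its level was not tested. The shared granule genes Chga (-0.09) and Chgb (-0.58) were not called. Among tuft cell genes 3 of 17 were called higher in jejunum and 2 in distal colon, and none of these calls was made with the floor at the 65th percentile.

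Position transcription factors were called in both directions, 8 of 33 higher in distal colon and 7 in jejunum. Hoxb13 read 11.52 (yogurt) and 11.78 (control) in distal colon against 4.22 and 3.80 in jejunum, at least 72.1-fold apart (log2 difference 6.17, SE 0.0906, adjusted p = 5.8e-09). Hoxd13 read 10.55 and 10.79 against 4.15 and 4.19, at least 36.5-fold apart, with 0.49 on the log2 scale by its other probe set. Both were at the floor in ileum, as were Hoxd10 (at least 6.71-fold) and Hoxa10 (at least 5.27-fold). Hoxa10 was not called with the mean of its probe sets (0.41). Hoxa7 (2.73-fold) and Hoxa9 (2.32-fold) were above the floor in all 3 gut segments and were not called with the higher floor (0.75 and 0.65). These Hoxa9 values are of its brightest probe set, and its other probe set gave 4.62 on the log2 scale. Cdx1 (2.01-fold) and Hoxd8 (at least 2.00-fold) lay at the threshold, and their calls were lost without 1 array: Cdx1 at 0.99 without the distal colon control array and 0.98 without the jejunum yogurt array, Hoxd8 at 0.90 without the distal colon yogurt array and 0.995 without the jejunum control array. The caudal factor Cdx2 was not called, at 9.04 and 8.13 in distal colon and 9.17 and 9.23 in jejunum.

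Among the gut segments, the factors higher in jejunum separated into those bright there alone and those shared with ileum. Onecut2 read 9.62 and 9.60 in jejunum, 3.14 and 3.25 in distal colon and 3.90 and 3.70 in ileum, at least 17.4-fold apart between jejunum and distal colon. Outside the gut, Onecut2 read 9.12 and 9.25 in liver. Pdx1, needed for the pancreas and duodenum, read 9.46 and 9.55 in jejunum, 5.15 and 4.83 in distal colon and 3.57 and 3.92 in ileum (at least 16.2-fold), with -0.99 by its other probe set. The part of the pancreas and stomach transcripts of these pools in the level of Pdx1 was not tested. Gata4 read 8.67 and 8.52 in jejunum and was under the floor in distal colon (at least 8.61-fold), with ileum values of 5.58 and 5.45. Creb3l3, a regulator of apolipoprotein genes, was 12.4-fold and Hnf4g 6.95-fold higher in jejunum, with ileum values of 10.19 and 10.60 for Creb3l3 and 9.61 and 9.11 for Hnf4g. Isx, which represses vitamin A uptake, read 7.40 (yogurt) and 5.33 (control) in distal colon and was at least 6.51-fold higher in jejunum. Gata5 was at least 4.20-fold higher in jejunum and was not called with the higher floor (-0.84). The number of factors called ran from 5 with the higher floor to 13 with no floor for distal colon.

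**Figure D3:**
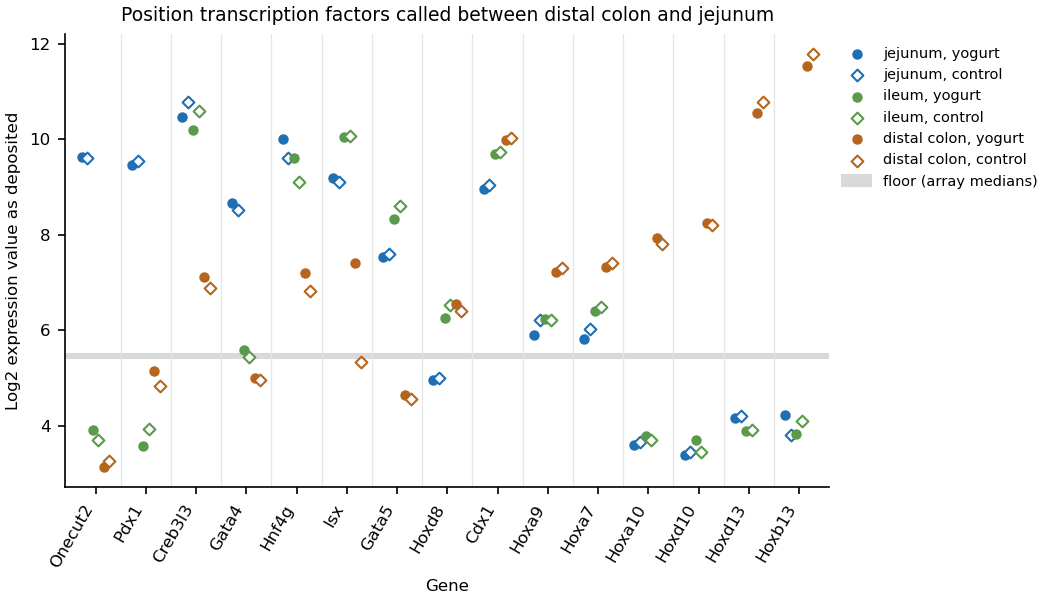
Deposited log2 values of the 15 called position transcription factors (horizontal) on the 2 jejunum (blue), 2 ileum (green) and 2 distal colon (brown) arrays, filled circles for yogurt pools and open diamonds for control pools, with the floor as a grey band. Among these gut arrays Hoxb13 and Hoxd13 stand above 10 in distal colon alone, and Onecut2 and Pdx1 above 9 in jejunum alone.

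In the lists of the gut wall all calls were toward distal colon, though in 2 of these lists most members were not called. Of 21 smooth muscle genes 14 were higher there and none in jejunum, with a median of 1.21 (0.95 in the yogurt pair and 1.45 in the control pair). Tagln, an actin-binding protein of contractile cells, read 12.47 and 12.75 in distal colon and 10.58 and 10.52 in jejunum, 4.17-fold apart. Cnn1, calponin, was 4.31-fold higher and Actg2, the enteric actin, 3.47-fold. Thbs4, a matrix glycoprotein listed with the pacemaker cells, read 11.30 and 11.58 against 5.11 and 4.94, at least 62.3-fold apart. Ano1, the chloride channel of pacemaker cells and of secretory epithelium, was 7.35-fold higher, and Kit, the receptor by which pacemaker cells are recognised, 2.87-fold, with 0.93 on the log2 scale for the mean of its probe sets. Enteric neuron and glia genes were higher in distal colon in 8 of 26 members and in jejunum in none (median 0.64), with 3 called under the higher floor. Penk, which encodes enkephalins, was 4.31-fold higher. Matrix and fibroblast genes were higher in distal colon in 11 of 28 members and in jejunum in none (median 0.74), with 7 called by the mean of probe sets. This holds for the listed genes only: of 30 collagen genes taken by symbol 6 were higher in distal colon and 2 in jejunum (median 0.42). Postn, periostin, read 11.31 and 11.54 in distal colon and 7.86 and 7.72 in jejunum, 12.4-fold apart. These lists measure the layers of the wall in each dissected piece, and their part in the differences of epithelial genes was not tested.

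Immune genes did not move as one. B cell and follicle genes were higher in distal colon in 15 of 22 members and in jejunum in none, with a median of 1.13. With the floor at the 65th percentile 7 of them were called. Cxcl13, which draws B cells into follicles, read 11.56 and 11.69 in distal colon and 8.51 and 8.30 in jejunum, 9.30-fold apart. Ms4a1, the B cell antigen CD20, was 7.92-fold higher (8.65 and 8.66 against 5.85 and 5.49). Plasma cell and IgA genes leaned toward jejunum, with 6 of 18 higher there, 1 higher in distal colon and a median of -0.75. The count of 6 ran from 4 without the jejunum yogurt array to 8 without the jejunum control array, and it was 1 when a pseudocount of 32 replaced the floor. Igha, the IgA heavy chain, was at 13.80 and 13.82 in distal colon and 14.41 and 14.40 in jejunum and was not called (-0.60). Its jejunum values were level with the highest value on each of those arrays, and whether the signal was saturated was not tested. Ighm, the IgM heavy chain, was 4.72-fold higher in distal colon by its brightest probe set, but its 8 probe sets ran from -1.65 to 2.83 and their mean was not called (0.51). T and intraepithelial lymphocyte genes were higher in jejunum in 7 of 27 members and in distal colon in none, or 4 with the higher floor. Gzma, a granzyme of cytotoxic lymphocytes, read 10.42 and 10.32 in jejunum and 5.51 and 4.77 in distal colon, at least 29.3-fold apart, and Gzmb was at least 6.80-fold higher. Ccl25, the chemokine that calls lymphocytes to the small intestine, was 66.1-fold higher in jejunum by its brightest probe set, with -0.67 by the other.

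Sensors of bacterial products were called higher in distal colon in 6 of 19 members and in jejunum in none, with a median of 0.39. Cd14, the co-receptor for lipopolysaccharide, read 11.41 and 11.40 in distal colon and 9.05 and 8.94 in jejunum, 5.30-fold apart, and Tlr2, which senses bacterial lipoproteins, was 4.07-fold higher. Interferon-stimulated genes (1 of 20 called, Oas1a, 2.74-fold higher in distal colon) and MHC class II genes (2 of 10 called, both higher in distal colon, with a median of -0.14) were near 0. The count of 2 for MHC class II genes was 1 without the distal colon control array and 3 without the distal colon yogurt array.

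The remaining lists were mostly short and held small numbers of calls. As shares, 57.1% of ileal bile acid genes, 25.0% of mast cell genes and 23.8% of macrophage genes were called. Claudin and junction genes had 13.0% called, and 12.2% of all genes tested were called. Macrophage genes were higher in distal colon in 4 of 21 members and in jejunum in 1, and Cd163, a scavenger receptor of tissue macrophages, was at least 3.35-fold higher in distal colon. Mast cell genes were called in 2 of 8 members, the mucosal proteases Mcpt1 and Mcpt2, both higher in jejunum, and neither call was made with the higher floor (-0.17 and -0.58). Claudin and junction genes were called in 2 of 23 members for distal colon and 1 for jejunum, keratins in none of 11, and ileal bile acid genes in 1 of 7 for distal colon and 3 for jejunum. Fabp6, the ileal bile acid carrier, read 13.83 and 13.82 in ileum, 8.05 and 7.47 in distal colon and 4.31 and 4.39 in jejunum.

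Cell proliferation genes lay under 0 in all 26 tested members, with a median of -0.76 (toward jejunum), but only 4 reached 2-fold. Plk1, a mitotic kinase, was 2.49-fold higher in jejunum (7.96 and 7.95 against 6.82 and 6.46), Ube2c 2.30-fold and Birc5 2.24-fold. For each of these the distal colon yogurt array was brighter than the control array. The count of 4 became 11 without the distal colon yogurt array and 9 after quantile normalization. Mki67 (-0.80) and Top2a (-0.99) were not called. The mixed list of crypt stem and Wnt genes had a median of 0.17, which changed sign under another setting. In it 4 of 28 members were higher in distal colon, Sfrp2, Aqp4, Rspo3 and Wnt5a. The 3 higher in jejunum were Olfm4, Smoc2 (-1.02) and Cd44 (-1.01). Of the calls toward jejunum 1 was left without the jejunum yogurt array. Lgr5, the receptor that marks crypt stem cells, was not called (-0.31). Olfm4, a marker of small intestinal stem cells, read 12.53 and 12.49 in jejunum and 3.54 and 3.20 in distal colon, at least 130-fold apart. Aqp4 was 4.13-fold and Sfrp2, a secreted Wnt antagonist, at least 5.17-fold higher in distal colon.

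Both jejunum pools also held transcripts of organs next to the upper gut, which are described here apart from the gene lists of the intestine. Of 22 exocrine pancreas genes tested 17 were called higher in jejunum and 1 in distal colon, with a median of -5.17. Cela2a, an elastase, read 13.24 (yogurt) and 11.94 (control) in jejunum and 4.73 and 4.65 in distal colon, at least 138-fold apart. Prss2, a trypsinogen, was at least 134-fold higher, Cpa1, a carboxypeptidase, at least 113-fold and Ctrb1, a chymotrypsinogen, 100.4-fold. All 17 were brighter by more than 1 log2 in the yogurt pool of jejunum than in its control pool, by 1.02 to 3.01 with a median of 1.64. The list's median was therefore -5.76 in the yogurt pair and -4.59 in the control pair. On both ileum arrays 10 of the 17 were at or under the floor, and Pnliprp2 and Clps were not, with ileum values of 10.80 and 10.55 for Pnliprp2 and 9.58 and 9.49 for Clps. The member called higher in distal colon was Sycn, a zymogen granule protein, at 13.55 and 13.68 there and 12.38 and 10.86 in jejunum, and it was not called with the 4 arrays alone. Among the 15 largest differences outside the lists, 2210010C04Rik read 12.85 (yogurt) and 11.52 (control) in jejunum and was under the floor in ileum and distal colon.

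Of 13 stomach genes tested 9 were higher in jejunum and none in distal colon, with a median of -1.85. Gkn3, a gastrokine, read 13.07 and 13.16 in jejunum and 5.60 and 5.73 in distal colon, 174-fold apart, and Gkn2 was at least 101-fold higher. Tff2, a trefoil peptide of the stomach and of the glands of the proximal duodenum, was 143-fold higher. In 8 of these 9 genes the control pool of jejunum was the brighter, the reverse of the pancreas genes, with a median difference of -0.41 between the yogurt and the control pool. Of 5 islet genes tested 1 was called. Ins2 read 7.91 (yogurt) and 5.93 (control) in jejunum and was not called, and Ppy was at least 7.15-fold higher in distal colon. Among liver genes Cps1, a urea cycle enzyme that enterocytes also make, was 40.5-fold higher in jejunum, while Alb was not called (0.53). Skeletal muscle (7 tested) and erythroid genes (7 tested) gave no call in either direction. Within the 145 genes at least 8-fold higher in jejunum, 22 were in these lists of other organs. Whether neighbouring tissue supplied part of the other genes higher in jejunum was not tested.

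**Figure D4:**
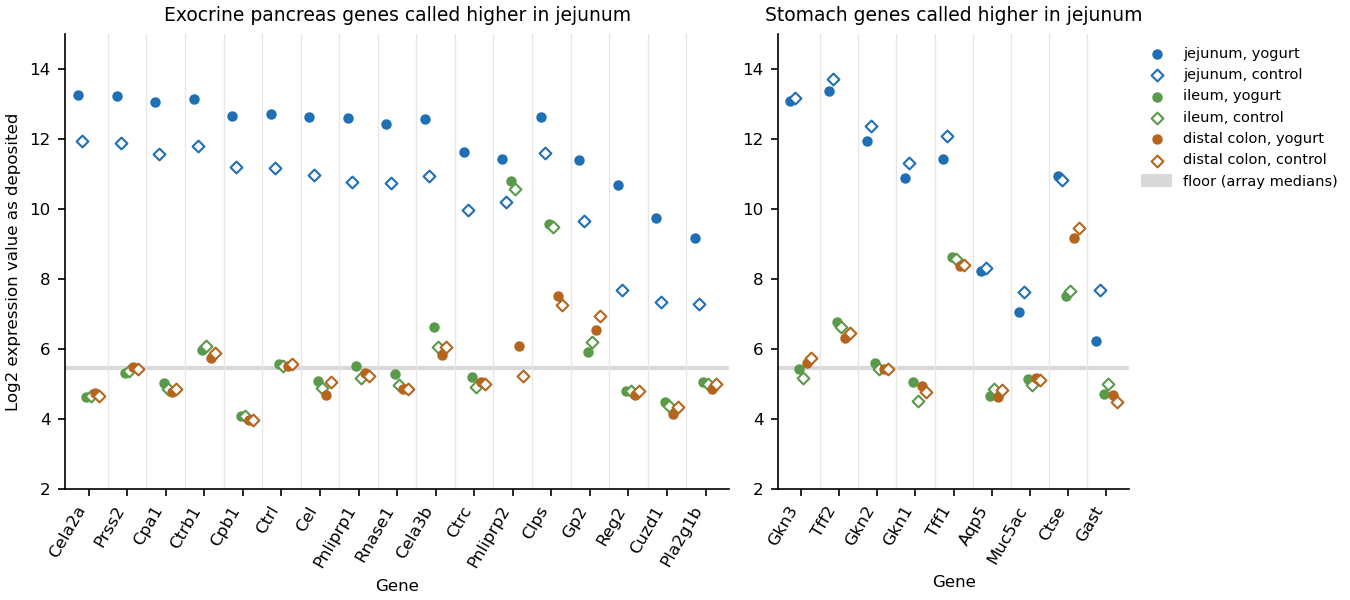
Deposited log2 values of the 17 exocrine pancreas genes (left) and 9 stomach genes (right) called higher in jejunum, on the jejunum (blue), ileum (green) and distal colon (brown) arrays, filled circles for yogurt pools and open diamonds for control pools, with the floor as a grey band. Every pancreas gene is higher in the yogurt than in the control pool of jejunum, and 8 of the 9 stomach genes are lower.

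The segment difference was of like size in both diets for most genes. The yogurt pair and the control pair differed by a median of 0.10 on the log2 scale over all genes tested and 0.19 over called genes. No gene had 2-fold differences of opposite sign in the pairs. In 59 called genes the pairs were more than 1 log2 apart, 13 higher in distal colon and 46 higher in jejunum. In 10 of those 13 and 19 of those 46, distal colon yogurt was brighter than distal colon control by more than 1 log2. In 22 of the 46 jejunum yogurt was brighter than jejunum control by that much. Those 22 include exocrine pancreas genes, of which all 17 called were brighter by more than 1 log2 in jejunum yogurt. Of these 17, 11 were at or under the floor on both distal colon arrays, which places them among the 22. With 1 array per diet and segment, diet and anything else that differed between the pools cannot be told apart in these 59 genes.

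The 6 called genes that moved most between the pairs are given with their values. Reg3b, a lectin that kills bacteria, read 10.59 (yogurt) and 5.10 (control) in distal colon, against 12.64 and 11.25 in jejunum. Ang4, an antimicrobial ribonuclease, read 10.15 and 5.64 in distal colon against 12.26 and 11.85. Cyp2c65 read 9.49 and 6.56 in distal colon and 10.77 and 11.13 in jejunum. In each of these genes the yogurt pool of distal colon was closer to jejunum than the control pool: the log2 differences of the yogurt and the control pair were -2.05 and -5.76 for Reg3b, -2.11 and -6.21 for Ang4 and -1.28 and -4.57 for Cyp2c65. 1810065E05Rik, higher in distal colon, read 11.96 and 8.69 there. Defa31 differed on the jejunum side, at 11.11 (yogurt) and 7.16 (control), and so did Reg2, at 10.68 and 7.67, which is listed with the pancreas. Calls of 4 of these rested on single arrays: Reg3b had an adjusted p of 0.0656 without the jejunum yogurt array and 0.0771 without the jejunum control array, Ang4 of 0.0604 and Cyp2c65 of 0.0802 without the jejunum control array, and Defa31 of 0.115 without the distal colon yogurt array. With fewer tissues in the fit the calls ended as well. Over the 6 gut arrays the adjusted p was 0.0642 for Reg3b, 0.0709 for Defa31 and 0.061 for Cyp2c65, and over the 4 arrays it was 0.0797 for Reg3b, 0.133 for Defa31, 0.108 for Cyp2c65, 0.0848 for Ang4 and 0.0605 for Reg2.

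**Figure D5:**
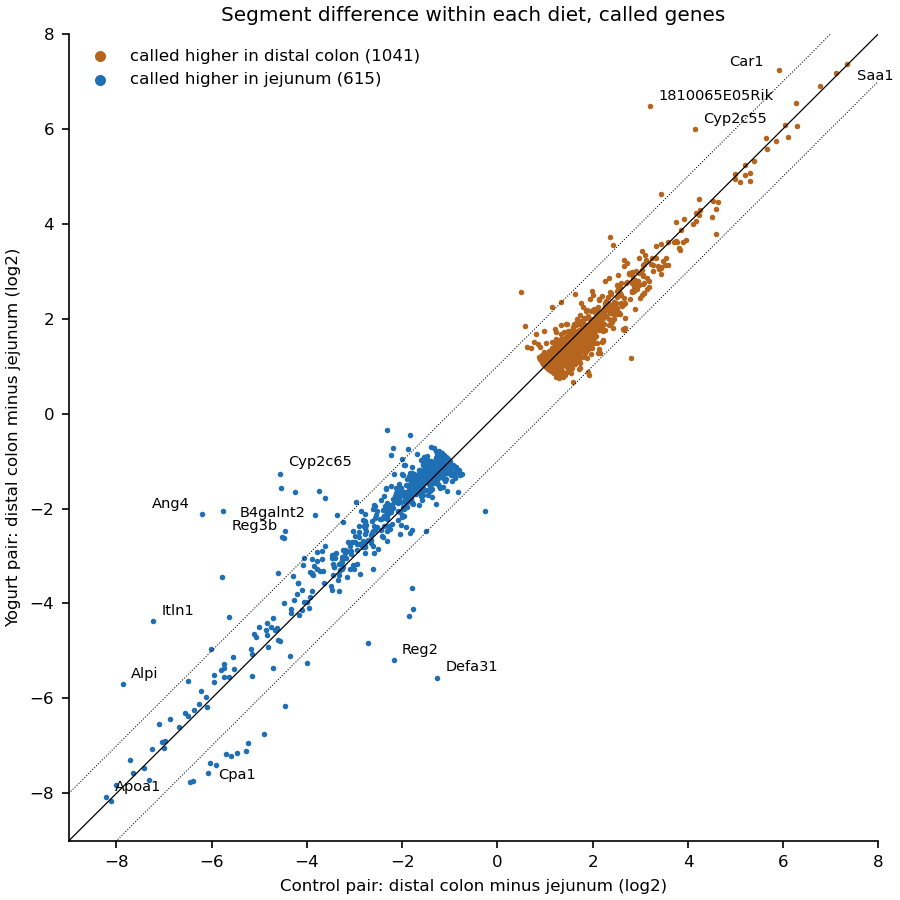
Each point is a called gene at its log2 difference, distal colon minus jejunum, in the control pair (horizontal) and in the yogurt pair (vertical), brown if higher in distal colon and blue if higher in jejunum. The solid line marks equal differences and the dotted lines a gap of 1 log2, beyond which 59 of the 1656 genes lie, among them Reg3b and Ang4 above the lines and Reg2 and Defa31 below.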

How the data were processed

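The authors deposited log2 expression values per probe set for the 10 arrays, and these were used as deposited. MAS5 and affy are named in the submitters' processing notes, without saying which step each did, so the summary method and scaling are unknown here. Precision is limited by having 1 array per pool. Of 45101 probe sets 64 were array controls. A single gene symbol, from the platform annotation and through the gene number from RefSeq (GRCm38.p6), was given for 34958, of which 34754 were matched by gene number, while 932 had several symbols and 9211 had none and were not used. Each of 18194 genes took the probe set that was brightest on average over the 10 arrays.

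Each array's 50th percentile served as its floor. The 13599 genes above the floor on at least 2 arrays were fitted with limma 3.58.1 in R 4.3.3 (lmFit, then eBayes with a variance trend), with terms for tissue and diet, 10 arrays and 4 residual degrees of freedom. Calls needed a Benjamini-Hochberg adjusted p under 0.05 and 2-fold. The script was tested on simulated data. Fold changes are antilogs of these differences.

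The comparison, the 46 gene lists and the rules were chosen with earlier results of these data known. The lists held 1151 genes, of which 907 were tested. Named genes were the 15 largest called differences in each direction (above the 75th percentile on both arrays of the brighter segment, with the same sign in both diet pairs and all measured probe sets), up to 4 called members per list and direction, 6 per list of another organ, the called position factors, and the 6 called genes that moved most between diet pairs. Other genes are named for their role, chosen after their values were seen. The list of male reproductive genes had none tested. Promoters came from RefSeq, and 1266 called genes had one. Alternatives changed the floor, filter, arrays, diet term, scaling, probe set rule and variance trend, and left out each array in turn.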

Additional observations from a re-analysis of the deposited data

How the results depend on the processing

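The counts of 1041 genes higher in distal colon and 615 higher in jejunum stayed within 1.5 times under every alternative run. Setting the floor at percentile 65 gave 760 and 488, no floor gave 1181 and 666, quantile normalization gave 910 and 683, and the calls were 698 and 527 for the mean of a gene's probe sets. Leaving out 1 array gave 969 to 1140 genes higher in distal colon and 579 to 680 higher in jejunum. The diet block of the fit pairs the tissues of the same mice, and without it 1041 and 615 genes were called. Each tissue had 1 array per diet, so leaving out the block changes no difference and only p-values could move. These equal counts therefore add little support. The share of calls higher in distal colon was 62.9%, and 57.1% after quantile normalization. Of 191 named genes called, 1 reversed: Lipe, a lipase listed with adipocytes, had a difference of -1.25 by its brightest probe set and 0.0065 by the mean of its probe sets. At least 1 alternative took 55 named genes out of the call, 32 of them with the higher floor. The medians of 12 of 45 lists changed sign under an alternative, among them the T cell, crypt stem cell, enteroendocrine, interferon, mast cell and neutrophil lists. Dim genes are limited by the floor, since a fold against it is a bound.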

Other observations

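Some gene families taken by symbol, chosen after the data were seen, are given here by their counts of calls. Over all genes tested 4.52% were called higher in jejunum and 7.65% higher in distal colon. Of 287 solute carrier genes tested 43 were higher in jejunum and 21 in distal colon. Of 58 cytochromes P450 11 were higher in jejunum and 10 in distal colon. The UDP-glucuronosyltransferases were one-sided among their calls, with 4 of 10 higher in jejunum and none in distal colon: Ugt2b38 (log2 difference -4.88), Ugt2b5 (-4.62), Ugt2a3 (-4.61) and Ugt2b36 (-3.33), whose probe sets can share transcripts. Of 17 glutathione S-transferases 6 were higher in jejunum and none in distal colon. Among 13 carbonic anhydrases 4 were higher in distal colon, Car1 (6.57), Car3 (4.02), Car4 (2.27) and Car2 (1.81), and 2 in jejunum, Car9 (-1.98) and Car13 (-1.04). Car3 is also an adipocyte gene, read 10.89 (yogurt) and 8.91 (control) in distal colon, and was not called with the mean of its probe sets (0.64). Of 22 Hox genes tested 7 were higher in distal colon and none in jejunum, and Hoxa13 was not called (0.18). Of 50 ribosomal protein genes 1 was called, higher in jejunum, and their median was 0.20. Of 44 potassium channel genes 4 were higher in distal colon and 1 in jejunum. Of 38 ABC transporter genes 3 were higher in distal colon and 4 in jejunum, and of 15 aldo-keto reductases none was called.

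Among the membrane-spanning 4-domain genes, Ms4a10 (-4.69) and Ms4a18 (-3.32) were higher in jejunum while the B cell gene Ms4a1 (2.99), Ms4a8a (1.87) and Ms4a4b (1.63) were higher in distal colon. 2310057J18Rik, a gene without an assigned role here, read 12.08 and 12.17 in jejunum and was under the floor in distal colon, at 4.21 and 4.32, and in ileum, at 4.26 and 4.38. It was at least 99.6-fold higher in jejunum than in distal colon.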
